A study of Mus musculus with 6 samples.

Results

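The antiviral TRIM genes were examined in ear skin of mouse pups after loss of the VEGF receptor gene Kdr from endothelium. They were taken by symbol: the Trim30 genes, Trim12a and Trim12c, Trim34a and Trim34b, and Trim14, Trim21, Trim25 and Trim56, and were selected on a mean of at least 5 counts over the 6 libraries of both groups together. The symbols match 12 of the 18404 rows in the deposited table, and 11 reached that mean. The members nearest the limit were Trim30b inside it, with a mean of 5.98 counts, and Trim34b outside it, with 1.01 counts. The low-count filter of the test kept 10 members, all except Trim30b, and each of these 10 had at least 14 counts in every library, so none was kept through the higher group alone. Trim30b had 3.49 to 5.05 expected counts in the controls and 5.28 to 11.87 in ecko, so it reached the mean through the ecko libraries.

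The knockout group, labelled ecko or Vegfr2ecko, has 3 libraries, and the control group has 3. Both groups are ear skin at postnatal day 3 and carry the label of tamoxifen treatment, which the series describes as daily doses of 60 µg from postnatal day 1 with littermates as controls. The Cre driver and the alleles of the controls are not given in the labels used here. The labels do not say whether replicates are separate animals or litters, so each p-value reflects sample-to-sample spread that may be partly technical. Y-linked reads, given below, differed within each group, so its libraries did not all come from the same animals.

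TRIM proteins are a large family of ubiquitin ligases that pair a RING finger with B-boxes and a coiled coil, often followed by a PRY-SPRY domain that recognises the target. Several are induced by interferon and act on viral capsids, on antibody-coated particles in the cytosol, or on the sensors of foreign RNA and DNA. In rodents the relatives of primate TRIM5, which binds retroviral capsids, have multiplied into the Trim12 and Trim30 genes. Skin holds keratinocytes, fibroblasts, vessels and resident macrophages, and RNA of whole skin does not say which of these a transcript came from. In such bulk samples, more cells of a type and more RNA per cell cannot be told apart.

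Before the start sites of Trim30a, Trim30d and Trim12c lay stretches that match the core of the interferon-stimulated response element, a motif of interferon-induced promoters. The sequences are shown because the Trim30 and Trim12 copies all had a higher mean level in ecko, and the copies differ in the stretch or in its distance from the annotated start site. They are from RefSeq on GRCm38.p6, read on the strand of the gene, and 10 of the 11 members have an entry of 250 bases before and 50 after the start site (Trim14 has none). The motif searched was GAAANNGAAA on both strands, and capitals mark the match, which reads here as the reverse complement, or in Trim30c the stretch aligned with it.
Trim30a at chr7:104465195-104465254, minus strand: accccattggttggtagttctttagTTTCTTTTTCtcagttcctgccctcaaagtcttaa
Trim30d at chr7:104507856-104507915, minus strand: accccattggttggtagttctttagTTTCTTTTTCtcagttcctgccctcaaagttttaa
Trim30c at chr7:104400881-104400940, minus strand: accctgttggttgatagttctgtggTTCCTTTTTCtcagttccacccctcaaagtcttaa
Trim12c at chr7:104353350-104353398, minus strand: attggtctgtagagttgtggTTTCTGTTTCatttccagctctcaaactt

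The match began 36 bases before the start site in Trim30a, 41 before it in Trim30d and 29 before it in Trim12c. Trim30d differed from Trim30a at 1 of the 60 bases printed, outside the capitals. In Trim30c the stretch aligned without gaps began 137 bases before the start site and differed at 8 of 60 bases, with T3C inside the capitals (positions counted from 1 at the 5′ end of the capitals), so it is not a match. Trim5, a TRIM gene of the same row that the symbols above do not take, had the Trim12c match at 49 bases before its start site and differed at 2 of 49 bases. Trim12a, Trim21 and Trim34a had a match within the 50 bases after their start sites, and a second Trim30a start site also had one there. Over the 300 bases, 6 of the 10 members with an entry held a match (Trim30a, Trim30d, Trim12a, Trim12c, Trim34a and Trim21), against 3.99% of all genes with an entry. No match was found in these windows of Trim25, Trim56, Trim30b and Trim30c.

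Libraries held 16987130 to 17979182 expected counts. Kdr, the deleted gene, had 348, 431 and 370 counts in the ecko libraries, against 1599, 1860 and 1337 in the controls, and fell by 2.05 on the log2 scale (SE 0.12; edgeR adjusted p 0.0001996). Keratinocyte and fibroblast markers marked the tissue as skin, with summed levels of 20900 to 23800 and 37100 to 38300 CPM in ecko, against 19600 to 26100 and 34800 to 40500 CPM in the controls. CPM here are counts put on equal library totals after TMM scaling. Ecko 3 and control 2 were almost without Y-linked reads, with 0.877 and 0.775 CPM summed over 4 genes, against 225 to 256 CPM in the other 4 libraries. Control 3 stood apart, with a chi-square per gene of 13.2 to 19.8 in its pairs, against 4.18 to 11.5 in all other pairs, and none of the pairs was near the value of 1 that sampling noise alone gives.

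In 9 of the 10 members tested every ecko library lay above every control library, and in Trim56 the groups overlapped. Over all genes tested, 7.55% had separate groups with ecko higher and 8.11% with ecko lower. The median log2 fold change of the 10 was 0.59, or 1.51-fold, and over all 14920 genes it was -0.002. None of the 10 passed the edgeR quasi-likelihood test after Benjamini-Hochberg adjustment over all genes, with adjusted p from 0.222 to 0.881, where 0% of all genes passed as higher and 0.0067% (Kdr alone) as lower. At an unadjusted p under 0.05, 9 members were higher and 0 lower, against 4.92% and 4.1% of all genes. limma-voom also called 0 members. DESeq2 called 3, namely Trim30a (adjusted p 0.00128), Trim30d (0.00379) and Trim12a (0.0292), where it called 0.583% of all genes higher and 0.174% lower.

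**Figure D1:**
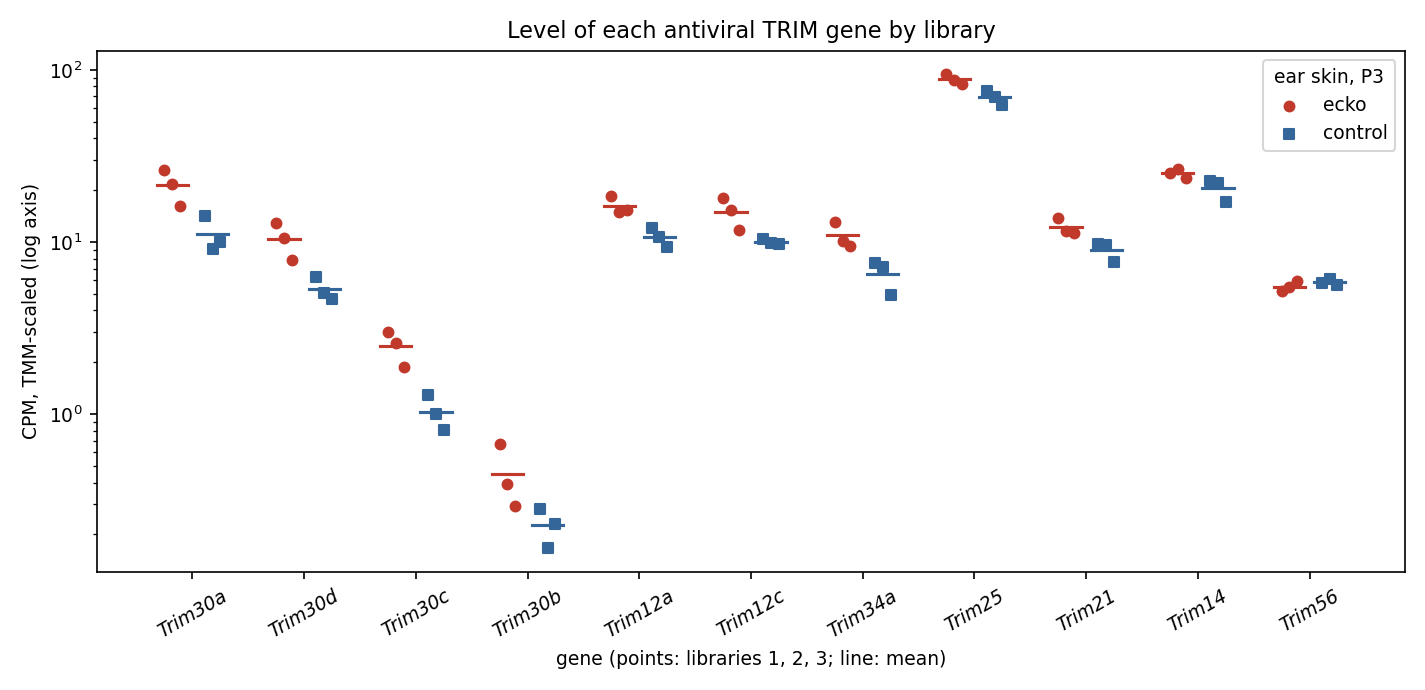
CPM (log axis) of the 11 antiviral TRIM genes in the 3 ecko libraries (circles) and the 3 control libraries (squares), with group means as lines. All tested genes except Trim56 have every ecko library above every control library. Trim30b was not tested, reached the mean of 5 counts through the ecko libraries, and is below 1 CPM throughout. Its nearest libraries are hardly apart, at 0.292 CPM in ecko 3 and 0.281 CPM in control 1.

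The Trim30 genes had the largest differences. Trim30a encodes a protein that, in mouse macrophages, restrains Toll-like receptor signalling by degrading TAB2 and TAB3. Its levels were 26.3, 21.6 and 16.1 CPM in the ecko libraries and 14.2, 9.08 and 9.97 CPM in the controls. The lowest ecko library stood above the highest control by a small step, and both groups had wide spreads. The means were 21.35 ± 5.09 CPM with ecko and 11.07 ± 2.72 CPM with control (SD, n = 3 each), a log2 fold change of 0.95 ± 0.21 (SE) or 1.93-fold, with an edgeR adjusted p of 0.324.

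Trim30d, the neighbouring copy, had 12.9, 10.5 and 7.90 CPM in ecko, against 6.24, 5.04 and 4.67 CPM in the controls. Ecko 1 was again the highest library and ecko 3 the lowest of its group. Its log2 fold change was 0.98 ± 0.20 (SE), and the adjusted p of 0.222 was the smallest of the members. Trim30d had 0.490, 0.488 and 0.489 of the counts of Trim30a in the ecko libraries, against 0.440, 0.555 and 0.468 in the controls.

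Trim30c, at much lower counts, had 54, 46 and 32 counts in ecko and 23, 18 and 14 in the controls. These are 3.00, 2.58 and 1.87 CPM in ecko, against 1.29, 0.996 and 0.807 CPM in the controls. The groups were separate, and the log2 fold change of 1.26 ± 0.28 (SE; 2.4-fold, adjusted p 0.253) was the largest of the members. Trim30b, which was not tested, had 11.87, 6.67 and 5.28 expected counts in ecko, against 5.05, 3.49 and 3.54 in the controls. Its whole gene span lies inside that of Gm38525, a coding gene that did not pass the low-count filter.

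The Trim12 pair, mouse relatives of TRIM5, had smaller differences. Trim12a had 18.4, 15 and 15.4 CPM in ecko, against 12.1, 10.7 and 9.40 CPM in the controls. All ecko libraries stood well above all controls. As a log2 fold change the difference was 0.60 ± 0.13 (SE; adjusted p 0.253). Trim12c had 17.9, 15.3 and 11.8 CPM in ecko, against 10.4, 9.91 and 9.69 CPM in the controls. Its control libraries lay close together while the ecko libraries were spread out, with 14.98 ± 3.07 CPM with ecko and 9.997 ± 0.365 CPM with control (SD, n = 3 each). For Trim12c the log2 fold change was 0.58 ± 0.15 (SE), with an adjusted p of 0.354.

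Trim34a is the relative of human TRIM34, which acts on some lentiviral capsids together with TRIM5 in human cells. It had 13.1, 10.1 and 9.53 CPM in ecko, against 7.53, 7.19 and 4.90 CPM in the controls. Ecko 1 was high and control 3 low within their groups, and the groups did not overlap. The log2 fold change was 0.74 ± 0.19 (SE), with an adjusted p of 0.348. Its copy Trim34b had at most 1.01 expected counts in ecko and at most 3.08 in the controls.

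**Figure D2:**
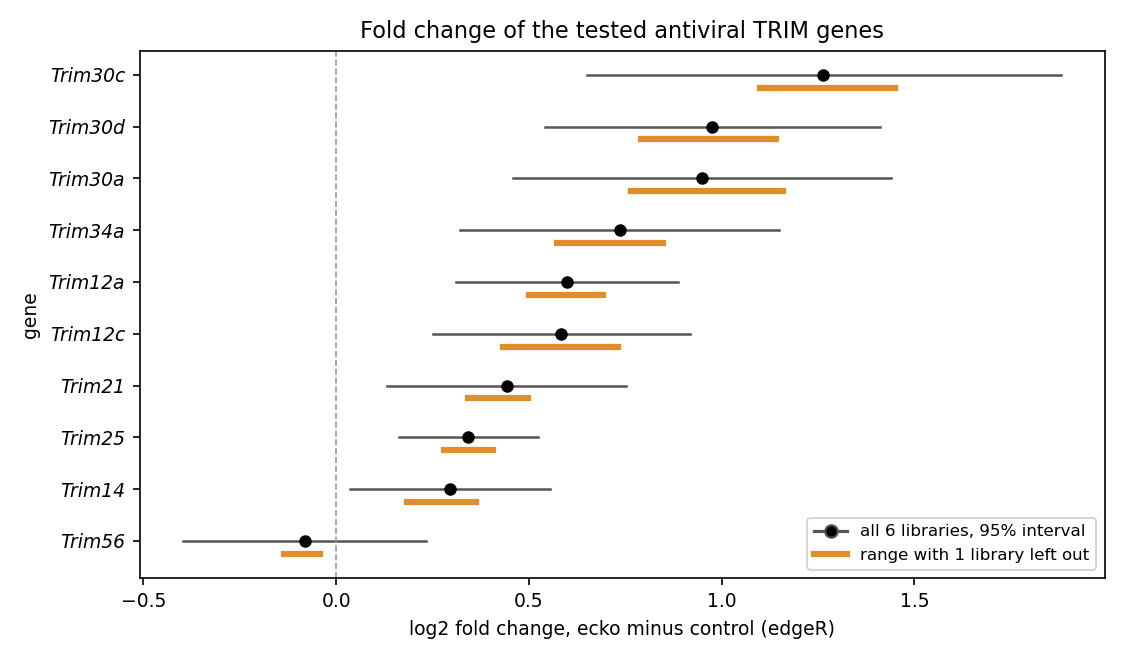
Log2 fold change (ecko minus control) of the 10 tested members with its 95% interval from the edgeR fit (thin line) and the range of the estimate when each library in turn is left out (thick line). All except Trim56 lie right of 0 with all 6 libraries and with any 1 left out, and the Trim30 genes lie farthest to the right.

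Trim30a, Trim30b, Trim30c, Trim30d, Trim12a, Trim12c, Trim34a and Trim34b lie in 1 row on chromosome 7, over 263.4 kb (chr7:104244448-104507853, GRCm38.p6), with Trim5 between Trim34a and Trim12a. Trim5 had 3.29 ± 0.93 CPM with ecko and 1.67 ± 0.20 CPM with control (SD, n = 3 each), with a log2 fold change of 0.98 ± 0.26 (SE; edgeR adjusted p 0.359) and groups that did not overlap. All 7 genes of the row that could be tested therefore had log2 fold changes between 0.58 and 1.26. Trim21 is on the same chromosome outside the row, at chr7:102557920-102565482. The other members are elsewhere, Trim14 at chr4:46505072-46536150, Trim25 at chr11:88999403-89020294 and Trim56 at chr5:137111286-137116462.

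**Figure D3:**
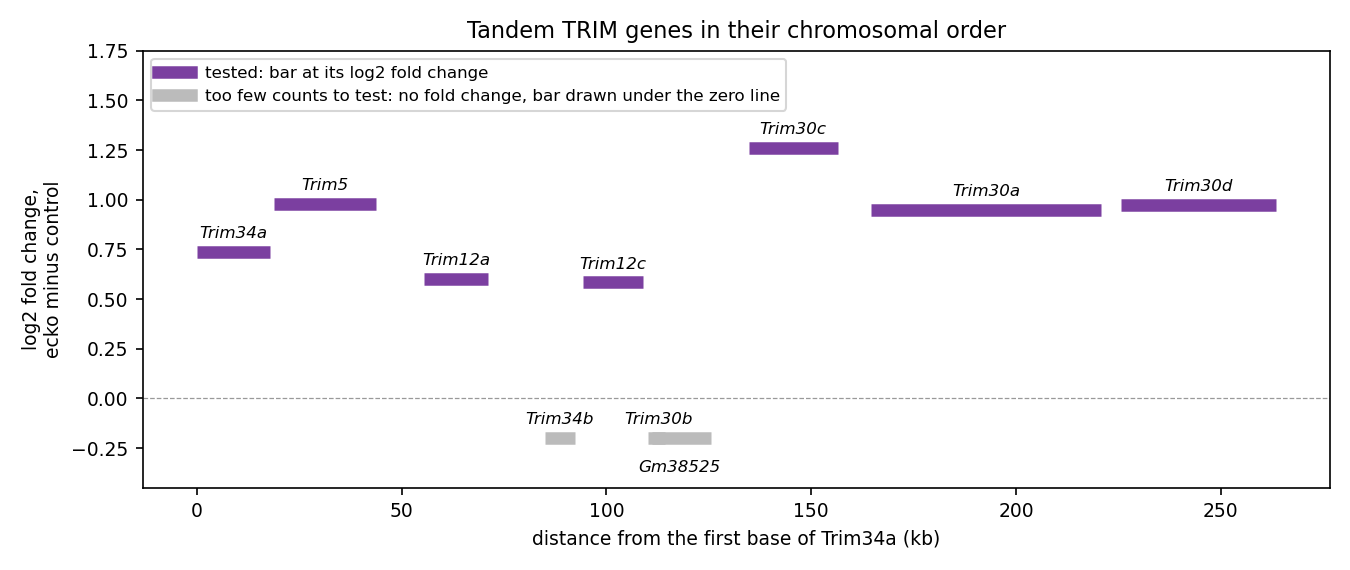
The coding genes of the chromosome 7 row by their distance from the first base of Trim34a (kb), each bar spanning the gene and drawn at its log2 fold change, ecko minus control; grey genes had too few counts to test. The bars of Trim30c, Trim30a, Trim30d and Trim5 lie higher than those of Trim34a, Trim12a and Trim12c.

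Because copies resemble each other, reads can be shared between them. Of all 50-base words in the longest coding transcript (GENCODE M21), 41.3% of those of Trim34a also occurred in Trim34b, 24.2% of those of Trim12c and 17.9% of those of Trim12a in Trim5, and 6.53% of those of Trim30a in Trim30d. With words of 100 bases these shares were 22.6%, 7.09%, 8.38% and 4.79%. Counting any other gene, the shares of 50-base words were 33.7% for Trim12c and 23.5% for Trim12a. How the estimated counts divide such reads makes the value of a single copy uncertain, and the read length is not given in the sources used here. Summing the copies before the test gave log2 fold changes of 0.98 ± 0.20 (SE) for the Trim30 genes, 0.59 ± 0.12 for Trim12a with Trim12c, and 0.72 ± 0.19 for Trim34a with Trim34b. Their edgeR adjusted p were 0.303, 0.214 and 0.368. Trim5 was not part of these sums, so reads that the Trim12 genes share with it stay uncertain. Strand use is not stated for the counting, so reads of the non-coding genes and the pseudogene that RefSeq places across Trim25, Trim14, Trim12a, Trim12c, Trim30a, Trim30b and Trim30d cannot be told apart from those of these members.

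Among the members outside the row, Trim21 encodes the cytosolic antibody receptor also known as the autoantigen Ro52. It had 13.8, 11.6 and 11.2 CPM in ecko, against 9.67, 9.63 and 7.61 CPM in the controls. The groups were separate, with ecko 1 the highest and control 3 the lowest library. As a log2 fold change this was 0.44 ± 0.14 (SE; adjusted p 0.459).

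Trim25 encodes a ligase that ubiquitinates the RNA sensor RIG-I and, in human cells, attaches ISG15. It had the most counts of the members, 1690, 1549 and 1420 in ecko and 1344, 1263 and 1086 in the controls. In CPM these were 94, 86.9 and 83.1 in ecko, against 75.5, 69.9 and 62.6 in the controls. The step between the groups was small beside the level. It amounted to a log2 fold change of 0.34 ± 0.08 (SE; 1.27-fold), with an adjusted p of 0.302.

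Trim14 lacks the RING finger and serves as an adaptor at the mitochondrial protein MAVS and at the DNA sensor cGAS. It had 25.3, 26.6 and 23.6 CPM in ecko, against 22.5, 22.1 and 17 CPM in the controls. Control 3 was low, and the other 2 controls came close to ecko 3. The log2 fold change was 0.30 ± 0.12 (SE), with an adjusted p of 0.530, and it was 0.18 without control 3.

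Trim56 encodes a ligase of the DNA-sensing arm that acts on STING and cGAS. It had 5.17, 5.44 and 5.91 CPM in ecko, against 5.79, 6.09 and 5.59 CPM in the controls. The groups overlapped. The log2 fold change was -0.08 ± 0.14 (SE; adjusted p 0.881), with a 95% interval of -0.40 to 0.23, or 0.760-fold to 1.18-fold.

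The 7 members in the chromosome 7 row (with Trim30b and without Trim5) were set against Trim14, Trim21, Trim25 and Trim56 within each library. Trim30b, which met the mean of 5 counts through the ecko libraries, added at most 0.668 CPM to any library. Summed, the row had 92.2, 75.5 and 62.9 CPM in ecko, against 52, 43.1 and 39.7 CPM in the controls. The other 4 genes had 138, 130 and 124 CPM in ecko, against 113, 108 and 92.8 CPM in the controls. Both sums were higher in every ecko library, and the row by the larger factor, 1.71 against 1.25 as ratios of group means. The log2 ratio of the row to the other 4 genes was -0.59, -0.79 and -0.98 in ecko, against -1.13, -1.32 and -1.23 in the controls. It was higher by 0.44 in ecko, with groups that did not overlap, and an exact two-sided permutation test gave p = 0.1, the smallest value that 3 against 3 libraries allow. Because the members were chosen with earlier results of these data known, this p is a description and no independent support.

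The libraries of a group were not alike for these genes. Of the 10 tested members, 8 were highest within ecko in ecko 1, and 9 were lowest within the controls in control 3. Without ecko 1 the median log2 fold change was 0.47, and without control 3 it was 0.54. The count of 9 members with separate groups was the same without any 1 library, while the share of all genes separated in that direction was then 10.2% to 15.1%. With the split between the 4 libraries with Y-linked reads and the 2 without as a term in the model, the median was 0.58 and 0 members passed. The summed members fell from library 1 to library 3 in each group. Skeletal muscle markers did too, with 9240, 8210 and 7560 CPM in ecko and 9670, 8080 and 5420 CPM in the controls. So did the macrophage sums given below, while keratinocyte and fibroblast sums did not. With the mean level of the muscle markers as a term instead, the median was 0.53 and 0 members passed.

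Marker lists of other cell types were read beside the TRIM genes. Of 18 macrophage and monocyte markers, 17 had a higher mean in ecko, and their sum was 1130, 1100 and 1030 CPM in ecko, against 1070, 958 and 928 CPM in the controls. The ratio of group means was 1.10 for this sum and 1.39 for the summed members, and none of the 18 markers was at 0. In 4 of the 18 the groups were separate, all with ecko higher, 6 were higher at an unadjusted edgeR p under 0.05, and 0 passed adjusted over all genes by edgeR or limma-voom. DESeq2 called 2 of them higher, the Fc receptor gene Fcgr1 and Mpeg1. Mpeg1, a pore-forming protein of macrophages, had the smallest p of the list, with a log2 fold change of 0.59 ± 0.09 (SE; edgeR adjusted p 0.15). Neutrophil markers were few in counts and their sum ranged from 15.2 to 54.2 CPM in ecko, against 11 to 25.1 CPM in the controls, with ecko 1 the highest and a ratio of group means of 1.96. Of 8 tested neutrophil markers 5 had a higher and 3 a lower mean. Csf3r was separate as higher, and DESeq2 called it higher, while Camp was separate as lower. At an unadjusted edgeR p under 0.05, 2 of these markers were higher and 1 lower. T and NK cell markers summed to 16.3 to 21.3 CPM in ecko, against 16.8 to 22 CPM in the controls, and B cell markers to 1.81 to 2.35 CPM in ecko, against 1.85 to 2.59 CPM. Langerhans and dendritic cell markers ran from 223 to 262 CPM in ecko and from 221 to 269 CPM in the controls. Pan-endothelial markers had a lower mean for 11 of 15 genes. Their sum was 589 to 629 CPM in ecko, against 621 to 745 CPM in the controls. The groups of 6 of the 15 were separate, all with ecko lower, and 5 were lower at an unadjusted edgeR p under 0.05. None passed adjusted over all genes by edgeR, DESeq2 or limma-voom. Over all genes tested, 49.5% had a higher and 50.5% a lower mean in ecko. The groups of 7.55% were separate as higher and 8.11% as lower. At that unadjusted p, 4.92% were higher and 4.1% lower, and DESeq2 called 0.583% higher. The part of these cell types in the TRIM differences was not tested.

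**Figure D4:**
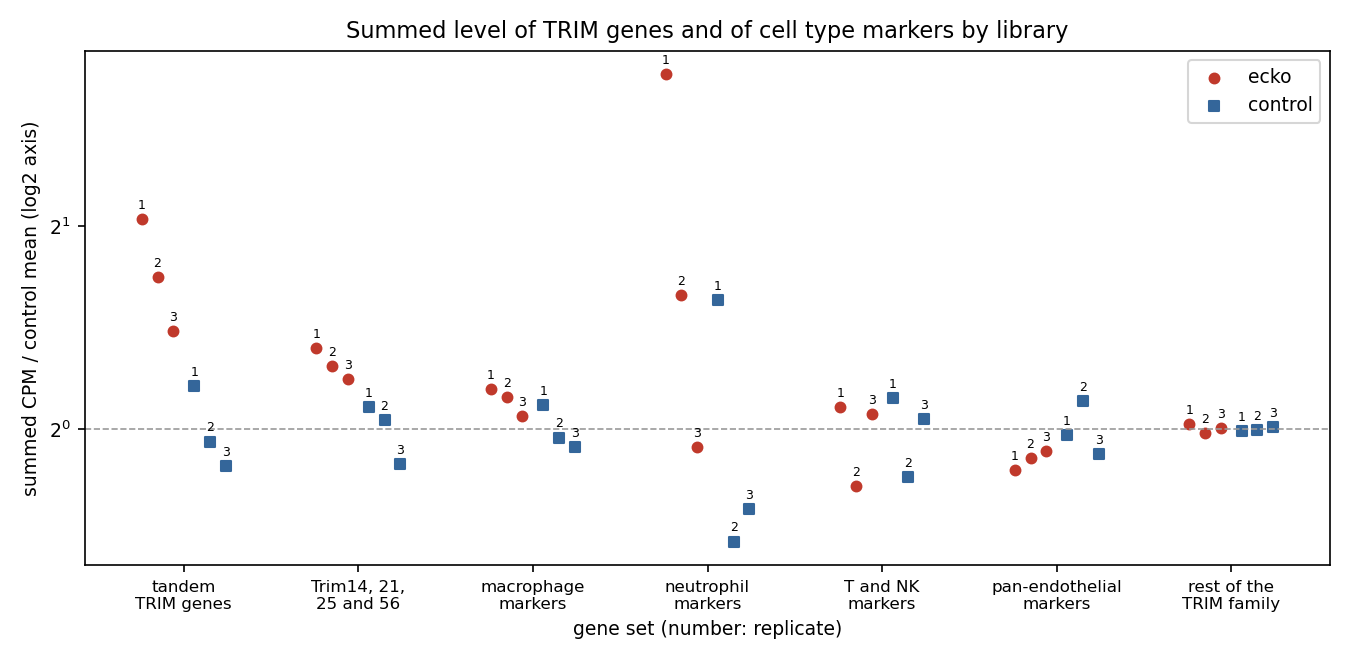
Summed CPM of the TRIM gene sets and of marker lists in each library, divided by the control mean (log2 axis; circles ecko, squares control; numbers are replicates). The chromosome 7 row and the set of Trim14, Trim21, Trim25 and Trim56 have every ecko library above every control, whereas the macrophage, neutrophil, T and NK cell and pan-endothelial sums overlap between the groups.

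Most other TRIM genes lay near 0. Of 51 further rows named Trim with a number, 38 were tested, with a median log2 fold change of 0.03, 21 higher and 17 lower, and 0 passed adjusted over all genes by edgeR, DESeq2 or limma-voom. Only Trim5 had groups that did not overlap, and Trim5 and Trim23 were the 2 genes with an unadjusted p under 0.05. Over all genes tested, 49.5% had a higher mean, and groups were separate as higher for 7.55% and as lower for 8.11%. At that unadjusted edgeR p, 4.92% were higher and 4.1% lower. Trim23 had 0.33 ± 0.12 (SE; edgeR adjusted p 0.498), and Trim11, Trim45 and Trim44 followed with 0.24, 0.25 and -0.08. The summed level of these rows was 1980 to 2040 CPM in ecko and 1990 to 2020 CPM in the controls.

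**Figure D5:**
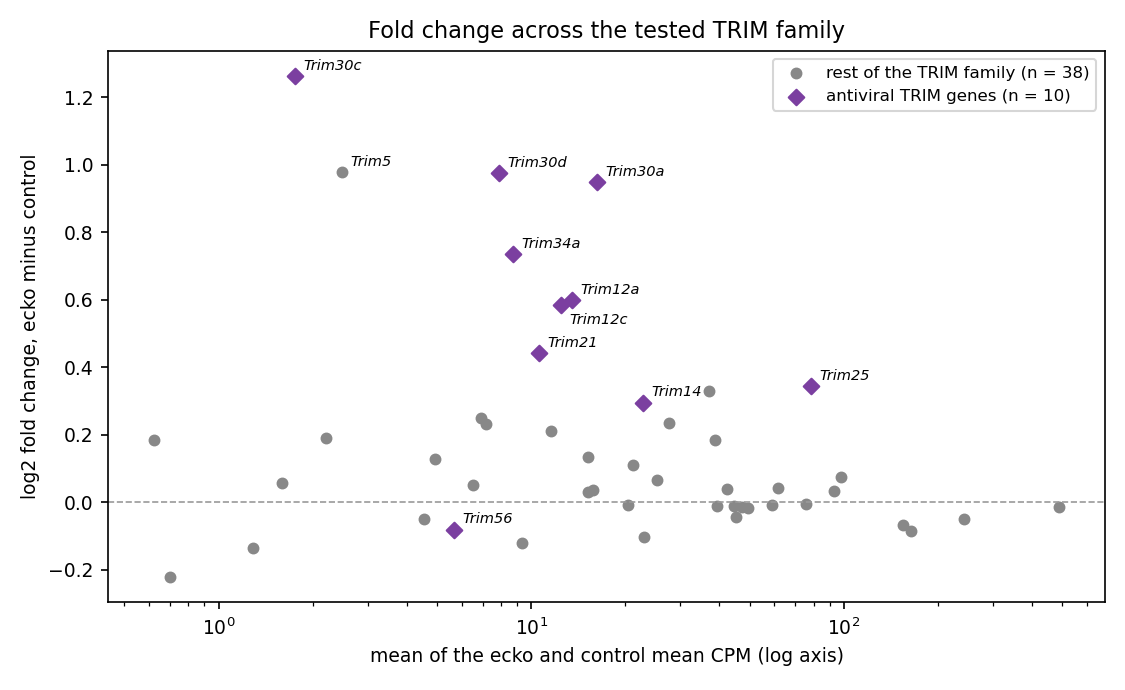
Log2 fold change (ecko minus control) of 48 tested TRIM genes against the mean of the group means in CPM (log axis), with the 10 antiviral members as diamonds and the 38 others as circles. The members other than Trim56 lie from 0.30 to 1.26, and most other TRIM genes lie near 0.

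Pathways in or near which the members act were counted from lists. By edgeR and by limma-voom no gene of any of them passed adjusted over all genes. Among 11 genes of RNA sensing, a list wider than RIG-I, on which TRIM25 acts, 9 had a higher mean in ecko. The groups of 4 did not overlap, all higher. The RNA sensor gene Ifih1 had 24.1 CPM in ecko, against 14 CPM in the controls (log2 fold change 0.79 ± 0.14), and the interferon regulator Irf7 had 35.9 and 16.4 CPM (1.13 ± 0.24). Ddx58, the gene of RIG-I itself, had 0.51 ± 0.16 with separate groups, while Mavs had 0.11 ± 0.16 with overlapping groups. Among 9 genes of DNA sensing, a list wider than the arm of TRIM56 and TRIM14, 8 had a higher mean. The groups of 5 were separate as higher and of 1 as lower. Zbp1, which binds left-handed nucleic acids, had a log2 fold change of 1.47 ± 0.24, and Ifi204, of the p200 family, 0.92 ± 0.20 (SE). Cgas and Tmem173, the genes of cGAS and STING, had 0.17 ± 0.21 and 0.04 ± 0.11 (SE), with overlapping groups.

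Of 5 genes of ISG15 conjugation, all 5 had a higher mean and 4 had separate groups. The modifier gene Isg15 had 10.4 CPM in ecko, against 4.22 CPM in the controls, and Usp18, which removes it, had 7.36 and 2.58 CPM. Interferon receptor signalling had 11 of 13 genes with a higher mean and 5 with separate groups, all higher. Irf1 had a log2 fold change of 0.46 ± 0.12 and Irf9, of the complex that binds the response element, 0.63 ± 0.17 (SE). Of 10 genes listed for TRIM21, which include Fc receptor genes that are not its partners, 8 had a higher mean. The groups of 3 were separate as higher and of 1, Vcp, as lower. The Fc receptor genes Fcgr1, also a macrophage marker above, and Fcgr4 had 0.69 ± 0.16 and 0.84 ± 0.26. Ro60 and Ssb had 0.12 ± 0.09 and -0.03 ± 0.09, with overlapping groups. The TAK1 and NF-kB genes, the arm of TRIM30a, had a median of -0.04, with 5 of 11 higher, and 2 were separate as higher and 1, Map3k7, as lower. The receptor gene Tlr4 had the smallest p with 0.52 ± 0.14 and the adaptor Myd88 had 0.15 ± 0.08, while Tab2, a target of TRIM30a, had -0.10 ± 0.09. At an unadjusted edgeR p under 0.05 the higher genes numbered 5 for RNA sensing, 5 for DNA sensing and 4 for ISG15 conjugation. They numbered 4 for interferon signalling, 4 for the TRIM21 list and 1 for the TAK1 arm, and no list had a lower one. DESeq2 called 2, 3, 3, 2, 1 and 0 genes of these lists as higher, in the same order. Over all genes tested, 4.92% were higher at that unadjusted p and 0.583% were called higher by DESeq2. A higher mean was found for 49.5% of all genes and a lower one for 50.5%. The groups were separate as higher for 7.55% of all genes and as lower for 8.11%.

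The genes most like the members were sought among 13162 other genes with a mean of at least 50 counts. Likeness was the root mean square difference of log2 CPM, centred per gene, over the 6 libraries, which includes the difference between the groups. Nearest to the mean profile of the tested members was Parp9 at 0.04 (log2 fold change 0.57), followed by Zfp605, Adora2b, March1 and Plac8 at 0.07 to 0.08. Nearest to Trim30a were Ifi204 at 0.05, Herc6, Oas2, Ddx60 and Fcgr4 at 0.10 to 0.13, with log2 fold changes of 0.84 to 1.01. Each member also differed from the mean profile of all members, from 0.06 for Trim12a to 0.31 for Trim30c and 0.39 for Trim56.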

How the data were processed

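RNA of ear skin was measured as poly(A) libraries, 3 ecko and 3 control. The authors deposited expected counts, unscaled; the unit follows from the numbers, since 10.1% to 10.4% of each library's entries have decimals. HISAT2 2.2.1, Bowtie2 2.4.5, RSEM 1.3.1 and GRCm38.p6 are named per the submitters' processing notes, without their roles, and annotation and strand are not given in the sources used here. Reads carry no molecular identifiers, so depth covers counting error only.

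Expected counts were rounded and tested with the quasi-likelihood test of edgeR 4.0.16 (R 4.3.3; filterByExpr with a minimum count of 10, TMM, robust estimation), two-sided, adjusted over 14920 genes at 0.05. SE is the log2 fold change over the square root of F, and intervals are 95%. Log2 CPM used a prior count of 2. The fit was checked on simulated data. DESeq2 1.42.0, limma-voom (limma 3.58.1), a replicate block and the other alternatives are in the closing section.

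Members and lists were chosen with earlier results of these data known. Named genes are all rows of the symbol rule, Kdr, the 2 of each pathway list and 5 of the rest of the TRIM family with the smallest p, and the 5 genes most alike. Tab2, Mpeg1, Vcp, Map3k7, Csf3r, Camp, Ddx58, Mavs, Cgas, Tmem173, Ro60 and Ssb were named after their values were seen.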

Additional observations from a re-analysis of the deposited data

How the results depend on the processing

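The direction of all 10 tested members was the same under every alternative run. The median log2 fold change ran from 0.47 to 0.68 with 1 library left out and from 0.53 to 0.60 under other models. With paralog counts summed a median of 0.44 was taken over the Trim30, Trim12 and Trim34 sums and the other 4 members. It covers other entries than the 10 genes, so it is not the same quantity. The sums themselves had log2 fold changes of 0.98, 0.59 and 0.72. Calls depended on the model. DESeq2 called 87 genes higher and 26 lower, with 3 members higher. The fit with a replicate block called 88 higher and 10 lower, with 2 members higher, Trim30a (adjusted p 0.00354) and Trim30d (0.00869). The skeletal muscle covariate called 38 and 5 genes and the Y-linked covariate 1 higher, with 0 members each. With 1 library left out 0 to 2 genes were called higher, 2 without ecko 3, and 0 members. Whether equal replicate numbers mark a shared litter or batch is not stated. Deviations of equal numbers correlated across genes at 0.162, -0.237 and -0.0726, too few values to decide it. Control 2 went best with ecko 3 (0.336), and both were almost without Y-linked reads. The ratio of the chromosome 7 row to the other 4 members ran from 0.34 to 0.54 with 1 library left out. The cause of these differences between models was not tested. The non-overlap counts under alternatives were added after the data were seen. Trim30b and Trim34b had too few counts for a fold change.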
